A study of Mus musculus with 9 samples.

Results

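The transcripts of 10 genes that restrain MAP kinase signaling were followed in C2C12 cells, an established line of mouse myoblasts that proliferate and can fuse into myotubes. The genes were 5 dual-specificity phosphatases (Dusp1, Dusp4, Dusp5, Dusp6 and Dusp10) and 5 members of the Sprouty family (Spry1, Spry2, Spry4, Spred1 and Spred2). They were taken by symbol from the 54307 genes of the deposited values, and all 10 were found. The NC group held 3 control libraries, the H group 3 libraries of cells given 25 mmol/L glucose, and the HL group (H+L in the labels) 3 libraries of cells given 25 mmol/L glucose together with 200 nmol/L liraglutide, an analogue of the incretin hormone GLP-1. All cells were treated for 48 h. The glucose of the NC medium is not stated in the sources used here. No library with mannitol and none with liraglutide but without the added glucose was analysed here. All cells came from 1 line. Nothing in the labels says that the libraries within a group were grown as separate cultures. The study's methods speak of independent repeats, 3 or more, and of 3 biological repeats, without tying either to the sequenced libraries. The p-values therefore measure only how far these samples spread, which may be technical.

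The MAP kinases ERK, JNK and p38 are switched on when a kinase phosphorylates a threonine and a tyrosine of their activation loop, and the dual-specificity phosphatases switch them off by removing both phosphates. Several of these phosphatases are themselves transcribed in response to the kinases they act on, which closes a negative feedback loop. Sprouty and Spred proteins act further upstream, between growth factor receptors and the RAF kinases, and Spred proteins bring neurofibromin, a RAS inhibitor, to the membrane. In muscle, ERK signaling favors proliferation of myoblasts, p38 signaling favors their differentiation, and Sprouty1 is known for its part in the return of muscle stem cells to quiescence. Only transcripts were measured in these libraries, and neither kinase activity nor phosphatase protein was.

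Promoter windows of 300 bases (250 before the start site to 50 after it, RefSeq, GRCm38.p6) were matched for 8 of the 10 genes, all but Dusp4 and Spry4. The windows of the 4 matched phosphatases are shown, since all calls among the 10 genes but that of Spry1 fall on phosphatases. They are given 5′ to 3′ on the gene's strand, and capitals mark every match to a searched motif. Dusp1 lies on chr17:26508423-26508722 (minus strand), Dusp5 on chr19:53528895-53529194 (plus strand), Dusp6 on chr10:99262981-99263280 (plus strand) and Dusp10 on chr1:184034131-184034430 (plus strand).
Dusp1: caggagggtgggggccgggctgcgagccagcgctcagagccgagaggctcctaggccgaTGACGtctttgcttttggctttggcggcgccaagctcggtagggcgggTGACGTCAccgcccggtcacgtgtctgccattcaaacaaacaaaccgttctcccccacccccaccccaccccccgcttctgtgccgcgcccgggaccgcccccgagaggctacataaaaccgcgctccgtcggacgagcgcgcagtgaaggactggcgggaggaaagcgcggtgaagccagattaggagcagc
Dusp5: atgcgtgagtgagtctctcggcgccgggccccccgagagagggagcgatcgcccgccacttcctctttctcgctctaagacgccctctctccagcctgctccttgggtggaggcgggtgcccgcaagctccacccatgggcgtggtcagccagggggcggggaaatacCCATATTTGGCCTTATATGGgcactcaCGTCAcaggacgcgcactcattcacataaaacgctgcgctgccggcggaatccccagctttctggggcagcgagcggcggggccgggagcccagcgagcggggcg
Dusp6: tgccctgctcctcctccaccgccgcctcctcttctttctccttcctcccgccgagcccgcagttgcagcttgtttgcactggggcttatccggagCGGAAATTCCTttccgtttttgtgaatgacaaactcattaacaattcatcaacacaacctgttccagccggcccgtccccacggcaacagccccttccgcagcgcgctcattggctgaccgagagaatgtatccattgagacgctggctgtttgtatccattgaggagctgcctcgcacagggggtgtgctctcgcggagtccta
Dusp10: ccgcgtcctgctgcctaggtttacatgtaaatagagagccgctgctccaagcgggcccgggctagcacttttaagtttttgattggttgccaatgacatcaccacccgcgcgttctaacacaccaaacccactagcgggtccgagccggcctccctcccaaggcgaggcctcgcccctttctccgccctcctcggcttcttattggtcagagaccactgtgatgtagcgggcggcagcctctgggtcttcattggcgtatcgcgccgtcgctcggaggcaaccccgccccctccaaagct
Dusp1 held the full cAMP response element TGACGTCA, from 143 to 136 bases before the start site. This element was found in 1.79% of the 32851 windows of the same length and in 1 of the 8 matched genes. Its core TGACG, which also lies inside the full element, was found in 20.8% of all windows and in Dusp1, Dusp5 and Spred2. Dusp5 held a CArG box, the binding motif of the serum response factor, in a tandem pair from 82 to 63 bases before the start site. The CArG box was found in 1.63% of all windows and in none of the other 7 matched genes. The tonicity element of NFAT5 was found in 23% of all windows and in Dusp6, Spred1 and Spred2. The ETS site CCGGAA was found in 14.9% of all windows and in Spry2 alone among the 8. The AP-1 site TGANTCA (7.81% of all windows) and the TATA box TATAAA (13.6%) were in none of the 8, and the window of Dusp10 held no match. Both strands were searched. A match is only a run of letters, and no binding was measured.

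**Figure D1:**
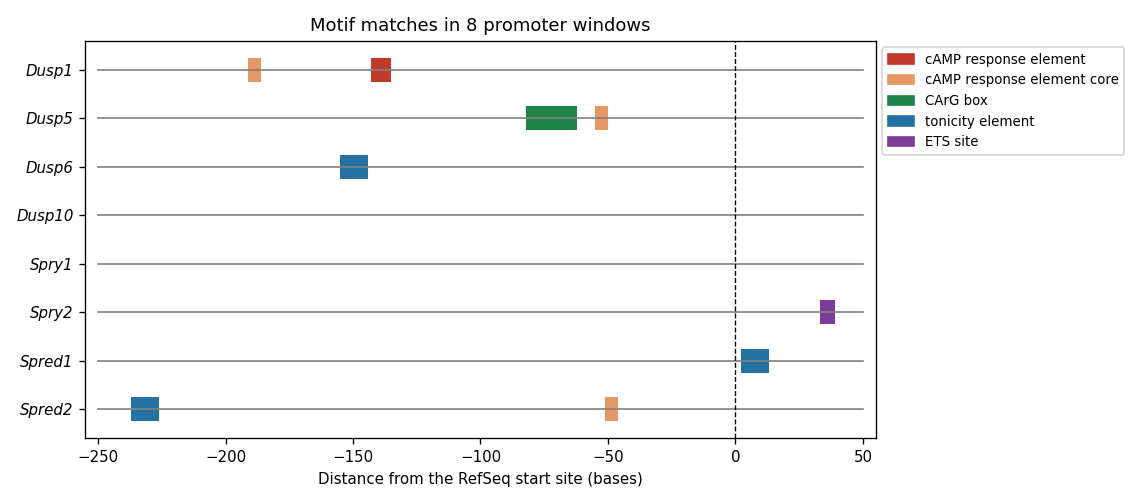
Motif matches in the promoter windows of 8 of the 10 genes, by distance from the RefSeq start site in bases (dashed line at 0). Each grey line is 1 window and each colored box 1 match on either strand, with a core that lies inside the full cAMP response element not drawn apart. Dusp1 is the gene with the full element, at 143 to 136 bases before the start, and Dusp5 the gene with the CArG boxes.

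All values are FPKM, that is, sequenced fragments scaled to the length of the gene's exons and to the size of the library, so levels are per length and can be set beside each other between genes. The steps between the lowest values of genes with 1 transcript put the depth at 17.4 to 23.1 M reads per library. The FPKM of all genes summed to 757000 to 765681 in the NC libraries, to 649733 to 683362 in those of H and to 698627 to 731929 in those of HL. Replicates scattered more in H, where the SD of the log2 values had a median of 0.171 over the tested genes, than in NC (0.0723) or HL (0.0865). The share of mitochondrial transcripts was 6.48% to 7.28% in the NC libraries, 7.24% to 9.47% in those of H and 9.19% to 11.4% in those of HL. Its part in the results was not tested. All 6 myoblast markers (Myod1, Myf5, Cdh15, Des, Vim and Itga7) were expressed in every group, with a summed level of 2582 to 2613 FPKM in the NC libraries, 2215 to 2295 in those of H and 3158 to 3209 in those of HL. Vim made up most of this sum, at 1880 to 2608 FPKM, with means of 2221 in NC, 1906 in H and 2582 in HL. The means of Des in the same order were 253, 191 and 369. Those of Cdh15 were 17.9, 9.85 and 23.5, and those of Myod1 18.2, 8.16 and 13.1. Myf5 (7.32, 11.3 and 20.9) and Itga7 (83.0, 116 and 168) were higher in H than in NC, while the other markers were lower. Of the 6 myotube markers, 2 reached 1 FPKM in at least 3 libraries, and of the 4 endothelial and 4 adipocyte markers 1 each. Of the 8 macrophage markers 2 did so, and their sum was 5.39 to 6.65 FPKM in the NC libraries, 106 to 169 in those of H and 19.4 to 20.4 in those of HL. Most of the sum in H came from Csf1r (91.5 to 149 FPKM), and most of that in NC and HL from Cd68. The mean of Cd68 was 4.78 FPKM in NC, 17.6 in H and 19.04 in HL. Tyrobp was listed at 0 in all 9 libraries, and Ptprc did not exceed 0.0219 FPKM. In bulk RNA, fewer cells of a type and less RNA per cell cannot be told apart.

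Differences are log2 fold changes of FPKM + 0.1, which understate the change of low genes. A gene was called higher or lower where its fold change exceeded 1 on the log2 scale in either direction with an adjusted p under 0.05, by limma over the 13674 genes that reached 1 FPKM in 3 or more libraries. All 10 genes passed this filter, 9 of them with at least 1 FPKM in all 9 libraries. Spry1 passed through 4 libraries, NC replicate 3 and the 3 HL libraries, so its place among the tested genes rests mainly on the group where it was high.

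With high glucose, 3 of the 10 genes were called higher than in NC and none lower, where 10.3% of all tested genes were called higher and 5.75% lower. The 3 were the phosphatases Dusp4, Dusp6 and Dusp1, at 4.90, 2.74 and 2.21 times the NC level. The other phosphatases, Dusp5 and Dusp10, and Spry4 had log2 fold changes between 0.69 and 0.93 and passed the adjusted p but not the fold threshold. Spry1, Spry2, Spred1 and Spred2 had log2 fold changes between -0.31 and -0.04 and adjusted p from 0.137 to 0.617. The median log2 fold change was 0.76 over the 10 genes and -0.04 over all tested genes. With liraglutide added to the high glucose, 1 of the 10 genes, Spry1, was called higher than in H and none lower, beside 3.55% and 5.83% of all tested genes. The median of the 10 was then -0.07, and that of all tested genes 0.04. Against NC, the HL group had 3 of the 10 genes called higher (Dusp1, Dusp4 and Dusp10) and none lower, beside 6.30% and 2.41% of all tested genes. The comparisons share libraries, H against NC and HL against NC the NC group and H against NC and HL against H the H group, so they are not independent of each other.

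**Figure D2:**
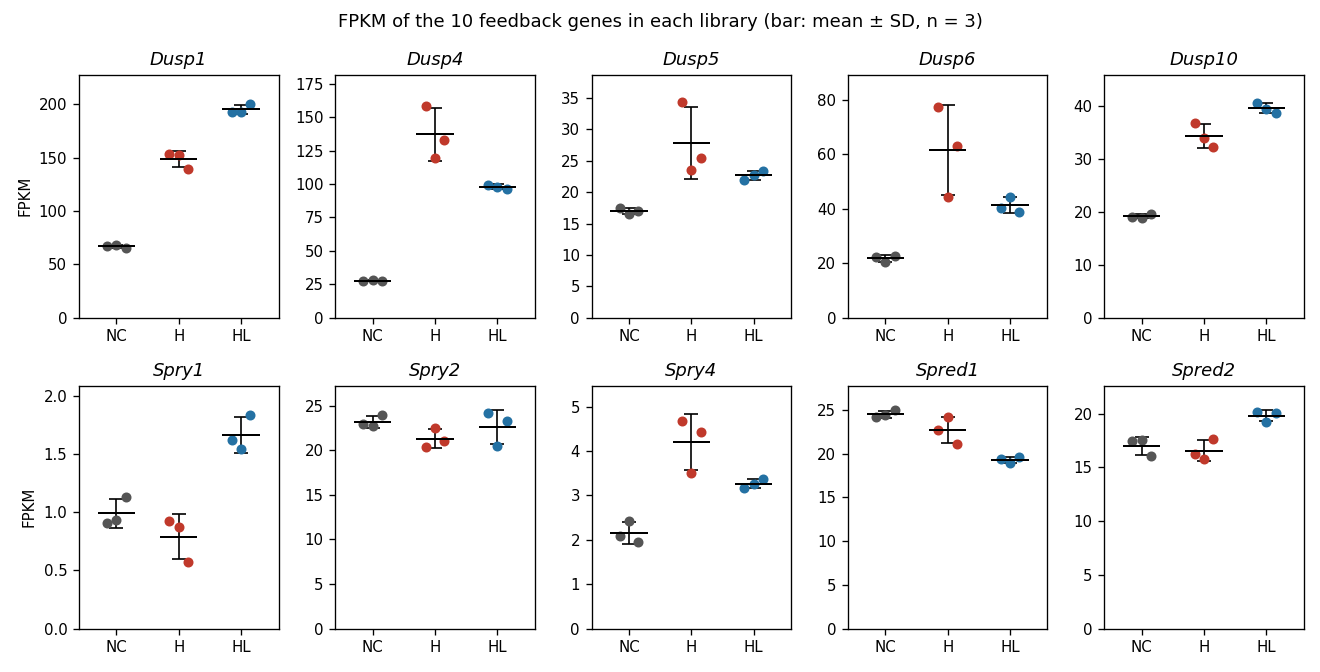
FPKM of the 10 genes in each of the 9 libraries (points), with the mean (bar) and SD (whiskers) of the 3 libraries of each group, on axes that start at 0. Dusp1 and Dusp10 were highest in HL, Dusp4, Dusp5, Dusp6 and Spry4 had their highest mean in H, and Spry2 stayed between 20.4 and 24.2 FPKM in all libraries.

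Dusp1 (ENSMUSG00000024190.8), the nuclear phosphatase of p38, JNK and ERK that cells induce within minutes of stress, was the most abundant of the 10 in every group. It was listed at 66.9, 68.6 and 65.8 FPKM in the NC libraries, 153, 153 and 139.7 in H, and 192, 193 and 200.2 in HL. The 3 groups did not overlap, with NC lowest and HL highest. Dusp1 rose in H against NC by a log2 fold change of 1.14 (standard error 0.05, 95% confidence interval 1.03 to 1.26, adjusted p = 2.52e-07) and in HL against NC by 1.54 (1.43 to 1.65, adjusted p = 3.98e-07). HL against H gave 0.40 (0.28 to 0.51, adjusted p = 0.000241), a level 1.32 times that of H, past the p threshold and under the fold threshold.

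Dusp4 (ENSMUSG00000031530.7), a nuclear phosphatase of ERK and JNK, had the largest difference of the 10 with high glucose. Its FPKM was 27.8, 28.2 and 27.2 in NC, 159, 119.8 and 133 in H, and 99.6, 98.1 and 96.1 in HL. Every H library lay above every HL library, and every HL library above every NC library. Dusp4 rose in H by a log2 fold change of 2.29 (standard error 0.09, interval 2.09 to 2.49, adjusted p = 1.62e-07) and in HL against NC by 1.82 (1.62 to 2.02, adjusted p = 2.48e-06). The difference of HL from H was -0.48 (-0.68 to -0.28, adjusted p = 0.00208), that is, 0.719 times the H level. Dusp4 has 1 annotated transcript, and its values correspond to about 1416 to 1468 reads per NC library, 5682 to 8893 per H library and 4131 to 5363 per HL library.

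Dusp5 (ENSMUSG00000034765.7), a nuclear phosphatase that acts on ERK and not on JNK or p38, showed a smaller difference of the same order. It was listed at 17.5, 16.5 and 17.0 FPKM in NC, 34.3, 23.6 and 25.5 in H, and 21.99, 22.7 and 23.4 in HL. The lowest H library lay just above the highest HL library, and both groups lay wholly above NC. The log2 fold change was 0.69 for H against NC (standard error 0.12, adjusted p = 0.000947), -0.27 for HL against H (-0.54 to 0.00, adjusted p = 0.0914) and 0.41 for HL against NC (adjusted p = 0.0189). For HL against H, the fold change was -0.11 without H replicate 1, and the adjusted p was 0.0244 after rescaling to TPM and 0.0211 without H replicate 2. Across all alternatives it lay between 0.0211 and 0.197. About 768 to 1715 reads per library stood behind these values.

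Dusp6 (ENSMUSG00000019960.9), the cytoplasmic phosphatase of ERK, whose transcript is a common readout of ERK activity, varied most between the H libraries. Its FPKM was 22.5, 20.5 and 22.7 in NC, 77.4, 44.2 and 63.2 in H, and 40.4, 44.5 and 38.8 in HL. The lowest H library lay within the range of HL, and both groups lay wholly above NC. Dusp6 rose in H by a log2 fold change of 1.45 (standard error 0.17, interval 1.07 to 1.84, adjusted p = 6.99e-05). HL against H gave -0.54 (-0.92 to -0.16, adjusted p = 0.0251), and HL against NC 0.91 (0.53 to 1.29, adjusted p = 0.00196). The adjusted p of HL against H lay above 0.05 in 6 alternatives, among them the fits without H replicate 1 (0.0647) and without HL replicate 3 (0.0769), over a range of 0.000435 to 0.0769.

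Dusp10 (ENSMUSG00000039384.9), which acts on JNK and p38 rather than ERK, followed the order of Dusp1. It was listed at 19.2, 18.8 and 19.6 FPKM in NC, 36.9, 34.0 and 32.3 in H, and 40.7, 39.5 and 38.8 in HL. No library of a group reached the range of another group. Against NC the log2 fold change was 0.84 in H (standard error 0.06, adjusted p = 3.89e-06), under the fold threshold, and 1.04 in HL (interval 0.91 to 1.18, adjusted p = 5.62e-06), where the gene was called higher. HL against H gave 0.21 (adjusted p = 0.0195), with an adjusted p of 0.152 after rescaling to TPM, 0.0571 without H replicate 3 and 0.071 without HL replicate 1 (range over the alternatives 0.0041 to 0.152).

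The makeup of the phosphatase transcripts differed between the groups, while the sums in H and HL overlapped. The 5 phosphatases summed to 153 ± 0.840 FPKM in NC (SD, n = 3 here and below), 409 ± 45.2 in H and 397 ± 1.41 in HL. Dusp4 took 18.1% ± 0.314 of this sum in NC, 33.4% ± 1.26 in H and 24.7% ± 0.509 in HL. The ratio of Dusp4 to Dusp1 was 0.411 to 0.416 in the NC libraries, 0.785 to 1.03 in H and 0.480 to 0.517 in HL, with no overlap between the groups. The ratio of Dusp10 to Dusp5 was 1.09 to 1.15 in NC and 1.66 to 1.85 in HL, and the H libraries ranged from 1.076 to 1.44 across the NC values. The ratio of Dusp6 to Dusp1 was lowest in HL, at 0.194 to 0.231, against 0.298 to 0.345 in NC and 0.290 to 0.505 in H. Each of these ratios sets a gene with a higher mean in HL than in H (Dusp1 or Dusp10) beside one with a lower mean. A difference between H and HL was thus built into the choice of pairs. With 3 libraries a group, a permutation test of such a ratio between a pair of groups, counting both directions, could not give a p below 0.10. No p is given for the ratios.

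**Figure D3:**
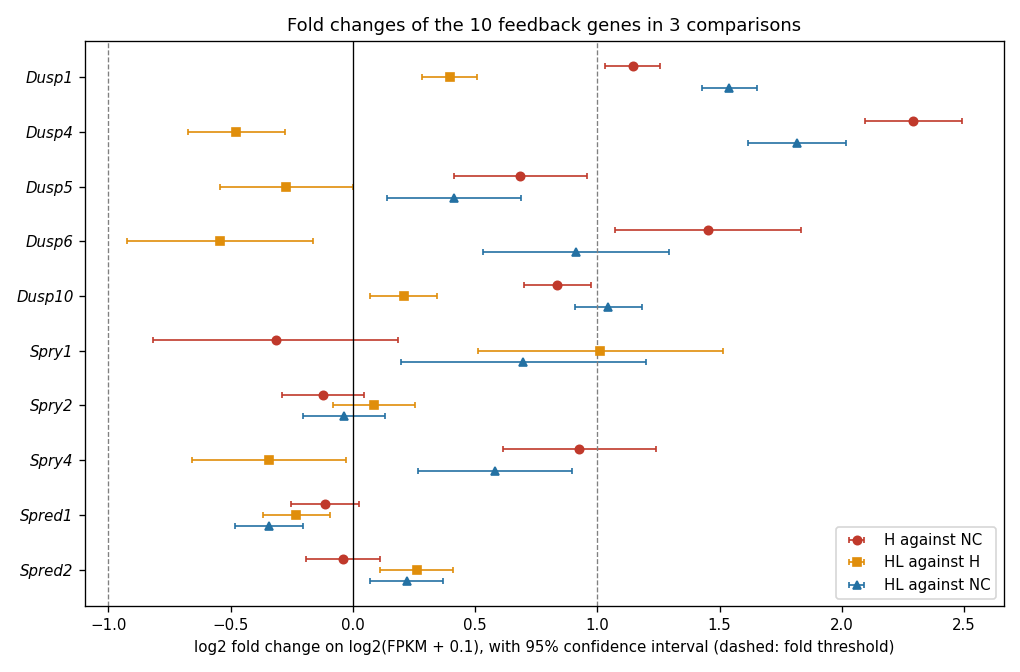
Log2 fold changes of the 10 genes on log2(FPKM + 0.1), with 95% confidence intervals, for H against NC (red circles), HL against H (orange squares) and HL against NC (blue triangles), and dashed lines at the fold threshold of 1 in either direction. Dusp1 and Dusp10 lie above 0 in all 3 comparisons, while Dusp4 and Dusp6 lie above 0 against NC and below 0 for HL against H.

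Among the Sprouty genes, Spry1 (ENSMUSG00000037211.13) was the lowest of the 10 genes in every group. It was listed at 0.909, 0.932 and 1.14 FPKM in NC, 0.928, 0.872 and 0.569 in H, and 1.62, 1.54 and 1.84 in HL. The HL libraries lay above all others, while those of NC and H overlapped. No H library of Spry1 reached the 1 FPKM of the filter and every HL library did, so a difference between H and HL was built into its being tested. Spry1 rose in HL against H by a log2 fold change of 1.01 (standard error 0.22, interval 0.51 to 1.51, adjusted p = 0.00497), just past the fold threshold. This call ended with a pseudocount of 1 (log2 fold change 0.58), after rescaling to TPM (0.95), and without H replicate 3 (0.82) or HL replicate 3 (0.94), with adjusted p between 0.00345 and 0.0223 over the alternatives. H against NC gave -0.31 (adjusted p = 0.247), and HL against NC 0.70 (adjusted p = 0.0274, or 0.0565 with the replicate number as a block).

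Spry2 (ENSMUSG00000022114.6), the most abundant Sprouty in these cells, passed no test in any comparison. Its FPKM was 23.0, 22.7 and 23.9 in NC, 20.4, 22.5 and 21.0 in H, and 24.2, 20.5 and 23.3 in HL. The H libraries lay just below those of NC, and HL overlapped both. The log2 fold change was -0.12 for H against NC (-0.29 to 0.04, adjusted p = 0.181), 0.09 for HL against H (-0.08 to 0.25, adjusted p = 0.366) and -0.04 for HL against NC (-0.20 to 0.13, adjusted p = 0.712), and all 3 signs turned after rescaling to TPM (0.070, -0.011 and 0.060). A p that misses the threshold does not show equal levels, and the intervals give the differences that remain possible. About 737 to 958 reads per library stood behind these values.

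Spry4 (ENSMUSG00000024427.8), which like Dusp6 is a known ERK-responsive inhibitor, was low but had the largest difference of its family with high glucose. It was listed at 2.09, 2.43 and 1.95 FPKM in NC, 4.69, 3.50 and 4.43 in H, and 3.17, 3.25 and 3.38 in HL. The groups did not overlap, with NC lowest and H highest. The log2 fold change was 0.93 for H against NC (standard error 0.14, interval 0.61 to 1.24, adjusted p = 0.000362), under the fold threshold. It passed that threshold without NC replicate 2 (1.01), without H replicate 2 (1.05) or after rescaling to TPM (1.12). HL against H gave -0.34 (adjusted p = 0.0678), with -0.44 after rescaling to TPM (adjusted p = 0.0316) and -0.47 without H replicate 2 (adjusted p = 0.0128). Across all alternatives this adjusted p lay between 0.0128 and 0.181. HL against NC gave 0.58 (adjusted p = 0.00748). The values rest on about 185 to 230 reads per NC library, 301 to 477 per H library and 264 to 315 per HL library.

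Spred1 (ENSMUSG00000027351.15) and Spred2 (ENSMUSG00000045671.18), which tether neurofibromin at the membrane, differed little, and in opposite directions with liraglutide. Spred1 was listed at 24.2, 24.4 and 25.0 FPKM in NC, 22.7, 24.2 and 21.2 in H, and 19.4, 18.9 and 19.6 in HL. All 3 HL libraries lay below all others, and the H libraries lay just below those of NC. For Spred1, HL against H gave -0.23 (-0.37 to -0.09, adjusted p = 0.0128) and HL against NC -0.34 (adjusted p = 0.00159).

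Spred2 was listed at 17.5, 17.5 and 16.1 FPKM in NC, 16.2, 15.8 and 17.7 in H, and 20.2, 19.3 and 20.1 in HL. Its HL libraries lay above all others, and NC and H overlapped. For Spred2, HL against H gave 0.26 (0.11 to 0.41, adjusted p = 0.0107, or 0.12 after rescaling to TPM) and HL against NC 0.22 (adjusted p = 0.0223). H against NC gave -0.11 for Spred1 and -0.04 for Spred2 (adjusted p = 0.137 and 0.617), and both signs turned after rescaling to TPM (0.078 and 0.15). The ratio of Spred2 to Spred1 was 0.644 to 0.721 in the NC libraries, 0.653 to 0.835 in those of H and 1.02 to 1.04 in those of HL. The 5 Sprouty and Spred transcripts summed to 67.9 ± 0.245 FPKM in NC, 65.6 ± 1.11 in H and 66.7 ± 2.81 in HL. The HL libraries spanned 63.5 to 68.5 and overlapped both other groups, while the H libraries (64.9 to 66.8) lay just below those of NC (67.6 to 68.1).

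Rescaling to TPM matters because the FPKM totals differ between the groups. In H against NC it moved the median over all tested genes from -0.04 to 0.15 on the log2 scale, and the 10 genes moved with it. On that scale 5 of the 10 genes were called higher in H (Dusp1, Dusp4, Dusp6, Dusp10 and Spry4). Of all 13674 tested genes, 1783 were then called higher and 538 lower. None of the 10 was called for HL against H, beside 383 higher and 945 lower of all tested genes. Dusp6 joined the 3 called for HL against NC at 1.01, beside 1019 higher and 256 lower. On all scalings tried, Dusp1, Dusp4 and Dusp6 were called higher in H than in NC.

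Counted without a fold threshold, 6 of the 10 genes were higher in H than in NC and none was lower (27.1% and 33.0% of all tested genes), 4 were higher and 3 lower in HL than in H (26.7% and 21.7%), and 8 were higher and 1 lower in HL than in NC (21.6% and 27.2%). In HL against NC, the adjusted p of Dusp5 lay above 0.05 without NC replicate 2, NC replicate 3 or HL replicate 3 (at most 0.0584), that of Spred2 without NC replicate 3, HL replicate 1 or HL replicate 3 (at most 0.092), and that of Spry1 without NC replicate 1, NC replicate 2 or any HL library (at most 0.0879). In H the libraries of 6 genes lay wholly above NC and those of 2 wholly below, where 29.7% and 35.7% of all tested genes did so. In HL against H, 4 genes lay wholly above and 4 wholly below, beside 30.4% and 24.9% of all tested genes. In HL against NC, 8 genes lay wholly above and 1 below, beside 29.5% and 36.3%. Libraries that did not overlap were thus common among all genes in each comparison.

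The order of the levels shifted between the groups. In NC, Dusp1 was followed by Dusp4, Spred1, Spry2, Dusp6, Dusp10, Dusp5, Spred2, Spry4 and Spry1, and only Dusp5 and Spred2 overlapped their neighbor in this order. In H, Dusp4 overlapped Dusp1 at the top, Dusp6 moved to the third place, and Dusp10, Dusp5 and Spred1 each overlapped the next gene in the order. In HL, Dusp1 lay clear of Dusp4, and the pairs Dusp6 and Dusp10, Dusp5 and Spry2, and Spred2 and Spred1 overlapped.

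Within the H group, Dusp4, Dusp5, Dusp6 and Spry4 were each highest in replicate 1 and lowest in replicate 2. Their coefficients of variation in H were 14.4%, 20.6%, 27.0% and 14.9%, against 1.79% to 7.14% in HL. Dusp1 and Dusp10 varied by 5.14% and 6.81% in H. Csf1r, the receptor of a macrophage growth factor, had the same order in H, at 149, 91.5 and 133 FPKM, while the myoblast factor Myod1 had another, at 4.09, 7.63 and 12.7, against 17.96 to 18.5 in NC. The part of these differences between the H libraries in the results was not tested.

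The transcripts most like the called genes over the 9 libraries were named by the highest Pearson correlation of log2(FPKM + 0.1) among the 13674 tested genes. These correlations are a description, since the points share 3 groups and their depth. For Dusp1 they were Mroh1, Btg2 and Lims2 (r = 0.996, 0.995 and 0.995). Btg2, an antiproliferative gene, went from a mean of 12.1 FPKM in NC to 37.95 in H and 63.0 in HL. For Dusp4 they were Atp6v1b2, Plin4 and Plin2 (r = 0.998, 0.998 and 0.997), and Plin2, a lipid droplet protein, went from 135 to 498 and 397 FPKM. For Dusp6 they were Ptk2, AV356131 and Prr13 (r = 0.994, 0.994 and 0.993). For Dusp10 they were Atf3, Grina and Calcoco1 (r = 0.996, 0.993 and 0.993), and Atf3, a stress-induced transcription factor, went from 9.24 to 48.2 and 62.6 FPKM. For Spry1 they were Tle2, Bglap3 and Dbi, with lower correlations (r = 0.971, 0.966 and 0.960).

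The other genes of the pathway were described by 8 lists. Of 7 further MAP kinase phosphatases and Sprouty family genes, 6 were found and tested (Dusp2, Dusp7, Dusp8, Dusp9, Dusp16 and Spred3), and none was called in any comparison. Dusp7, an ERK phosphatase, was at 7.99 ± 0.404 FPKM in NC, 7.20 ± 0.0933 in H and 4.41 ± 0.431 in HL (-0.85 for HL against NC, adjusted p = 0.000108). Dusp8, a JNK and p38 phosphatase, was at 2.40 ± 0.240, 2.88 ± 0.283 and 3.79 ± 0.372 FPKM (0.64 for HL against NC, adjusted p = 0.00331), and Spred3 at 5.66 ± 0.264, 8.52 ± 0.649 and 8.70 ± 0.548 FPKM (0.58 for H against NC, adjusted p = 0.000367, and 0.61 for HL against NC, adjusted p = 0.000486). Dusp16, a JNK phosphatase and the most abundant of these 6, was at 10.05 ± 0.384, 13.4 ± 0.809 and 13.2 ± 0.602 FPKM.

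Of 12 atypical dual-specificity phosphatases, which lack the MAP kinase docking domain, 9 were tested. Dusp18 rose in H by a log2 fold change of 1.004 (8.39 ± 0.285 FPKM in NC, 17.0 ± 2.37 in H, adjusted p = 2.53e-05). This call ended with a pseudocount of 1 and when NC replicate 3, H replicate 1 or H replicate 3 was left out. Dusp22, a JNK pathway phosphatase, rose by 1.37 in HL against H (4.79 ± 1.24 FPKM in H, 12.3 ± 0.483 in HL, adjusted p = 0.000133). No gene of the list was called lower in either comparison, and none was called for HL against NC.

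Of 14 receptor tyrosine kinases, the receptors on which Sprouty proteins act, 11 were tested and none was called in H against NC, but 2 were called higher after rescaling to TPM and 1 without H replicate 3. In HL against H, Met, the receptor of hepatocyte growth factor, rose by 1.004 on the log2 scale (15.6 ± 2.49 FPKM in H, 31.2 ± 1.56 in HL, adjusted p = 6.36e-05), and Egfr, the receptor of epidermal growth factor, fell from 21.4 ± 3.42 to 9.15 ± 1.04 (-1.21, adjusted p = 6.84e-05). Egfr was at 10.98 ± 0.719 FPKM in NC. Its log2 fold change was 0.95 in H against NC (adjusted p = 0.000145), under the fold threshold, and -0.27 in HL against NC (adjusted p = 0.104). The call of Met ended with a pseudocount of 1, after rescaling to TPM, and without H replicate 1, H replicate 2 or HL replicate 3. In each of these settings 1 receptor of the list was called, as lower. Without H replicate 3 the number called was 4. Axl, the most abundant of them in NC, was at 163 ± 4.19, 108 ± 12.3 and 122 ± 4.34 FPKM, a log2 fold change of -0.59 in H (adjusted p = 0.000145).

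Of 17 ligands, 11 were tested. Ereg, a ligand of the EGF receptor, rose in H by 1.64 (26.9 ± 1.03 FPKM in NC, 84.7 ± 11.6 in H, adjusted p = 7.48e-07) and fell in HL against H to 18.9 ± 0.569 (-2.15, adjusted p = 8.23e-07). In HL against H, Fgf2 fell with -1.01 (adjusted p = 0.00135), and the low ligands Fgf5 and Pdgfb, at 1.81 ± 0.214 and 2.77 ± 0.455 FPKM in HL, rose with 1.05 and 1.02 (adjusted p = 0.0426 and 0.00189). Fgf5 passed the filter through H replicate 3 and the 3 HL libraries, so its being tested rested mainly on the group where it was high. The 4 calls of HL against H became 1 without HL replicate 2 and 2 without H replicate 1 or H replicate 2. In H against NC, 1 ligand was called, and 2 without any 1 of the 3 H libraries.

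None of the 20 tested members of the RAS-ERK cascade was called in any comparison. Their log2 fold changes in H against NC ranged from -0.60 to 0.46 with a median of -0.13, beside -0.04 over all tested genes. Without a fold threshold, 1 of the 20 was higher and 7 were lower in H than in NC (27.1% and 33.0% of all tested genes). By the same count 5 were higher and 2 lower in HL than in H (26.7% and 21.7%), and 0 were higher and 4 lower in HL than in NC (21.6% and 27.2%).

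Of 14 RAS inhibitors and other feedback genes, all tested, Trib1, a pseudokinase that binds MAP kinase kinases, rose in H by 1.88 (9.41 ± 0.314 FPKM in NC, 35.2 ± 5.81 in H, adjusted p = 7.48e-07) and was at 33.0 ± 0.456 in HL, called higher than NC (1.80, adjusted p = 4.66e-06). Rgs2, a regulator of G protein signaling, fell in HL against H from 8.71 ± 0.681 to 1.77 ± 0.497 FPKM (-2.27, adjusted p = 2.69e-05) and in HL against NC (-1.40, adjusted p = 0.000399). A further member was called in H against NC without NC replicate 1.

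Of 20 genes of the JNK, p38 and ERK5 cascades, 18 were tested. In H against NC, Mapkapk3, a kinase downstream of p38, rose from 0.398 ± 0.0899 to 2.1 ± 0.364 FPKM (2.15, adjusted p = 0.000278), and Mapk11, which encodes p38 beta, fell from 10.8 ± 0.466 to 4.51 ± 0.709 (-1.26, adjusted p = 1.12e-05). In HL against H, Mapkapk3 fell with -1.20 (adjusted p = 0.0112), a call that ended without HL replicate 3, with variance weights per group and with a pseudocount of 1. The mean of Mapkapk3 was below 1 FPKM in NC and HL, so that it was tested because of its H libraries.

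Of 19 transcripts known to respond to ERK, 18 were tested, and 4 rose and 1 fell in H against NC, where 10.3% of all tested genes were called higher and 5.75% lower. Fos, an AP-1 subunit, rose from 8.63 ± 0.691 to 99.0 ± 29.0 FPKM (3.46, adjusted p = 7.07e-07), and was at 93.9 ± 7.32 in HL. Ier3, an immediate early gene, rose from 162 ± 3.69 to 447 ± 121 (1.43, adjusted p = 5.8e-05) and fell in HL against H to 179 ± 3.14 (-1.28, adjusted p = 0.000225). Ccnd1, which encodes cyclin D1, went the other way, from 131 ± 1.89 to 56.1 ± 6.27 FPKM in H (-1.23, adjusted p = 1.19e-06) and to 135 ± 3.14 in HL (1.28 against H, adjusted p = 3.63e-06).

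The other members that rose in H were the transcription factors Egr2 and Egr1, with 1.11 and 1.03 (adjusted p = 0.000995 and 1.51e-05). Without H replicate 1 the list had 2 genes called higher and 1 lower. In HL against NC, 3 of the list were called higher, Fos (3.43), Egr2 (1.91) and Egr1 (1.51), beside 6.30% of all tested genes. The median log2 fold change of the list was 0.57 in H against NC, -0.05 in HL against H and 0.26 in HL against NC, beside -0.04, 0.04 and -0.04 over all tested genes.

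**Figure D4:**
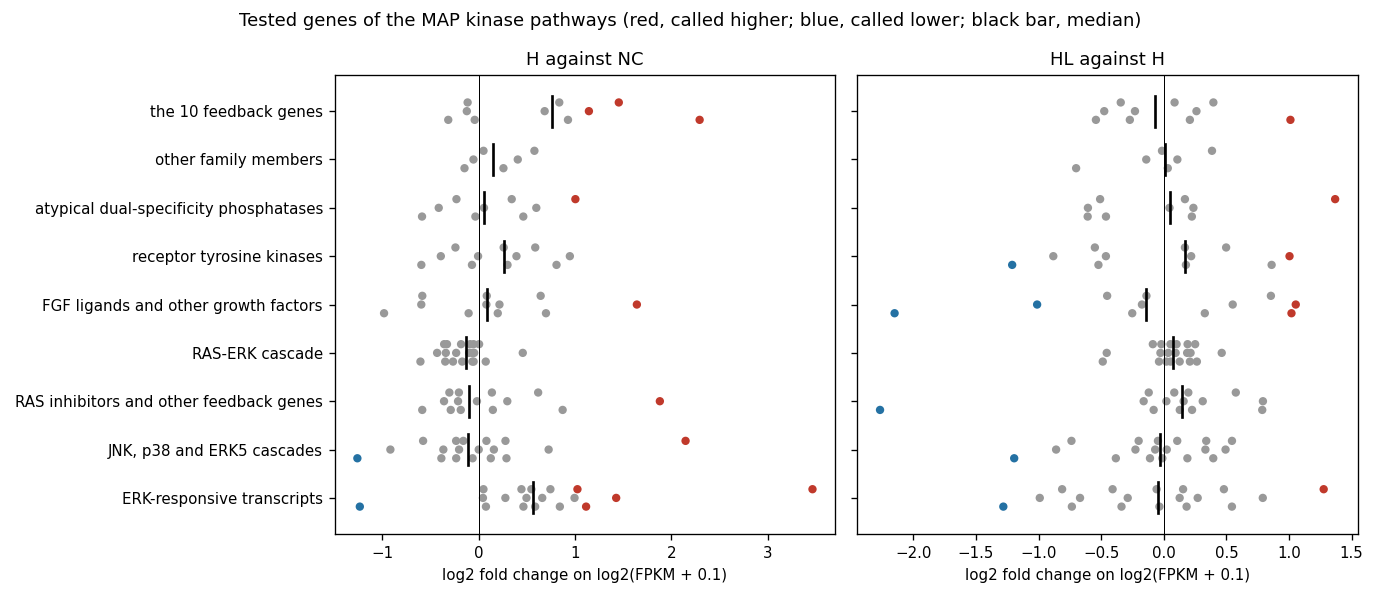
Log2 fold changes on log2(FPKM + 0.1) of the tested genes of the 10 feedback genes and of the 8 pathway lists, for H against NC (left) and HL against H (right). Each point is 1 gene, red where called higher, blue where called lower and grey where not called, and the black bar is the median. In the left panel the medians of the 10 genes (0.76) and of the ERK-responsive transcripts (0.57) lie farthest to the right, and no gene of the RAS-ERK cascade is called in either panel.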

How the data were processed

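The mRNA of 9 samples of C2C12 cells was sequenced, and the labels gave each sample its group (NC, H or HL, 3 samples each). After trimming and alignment the authors deposited 1 FPKM value per gene and library, with no read counts, so no count test was run. The submitters' processing notes name HISAT2 (version 2.1.0), StringTie (version 1.3.3b) and the mm39 build, while the methods name a human genome and the name of the deposited table another quantifier. The identifiers are mouse Ensembl genes, and all 9 value columns were used.

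The 10 genes were matched by symbol. On the scale of log2(FPKM + 0.1) they were fitted, with all other genes, by limma (version 3.58.1, statmod 1.5.0, R 4.3.3) with the trend and robust options, with 1 model for the 9 libraries, which leaves 6 residual degrees of freedom. The 13674 genes that reached 1 FPKM in 3 or more libraries were tested, with the Benjamini-Hochberg adjustment over these genes in each comparison. Calls used the thresholds of the study, an adjusted p under 0.05 together with a log2 fold change beyond 1 in either direction. The fit was tested on simulated data, for H against NC alone and with the same spread in all groups. The larger scatter of the H libraries was thus not simulated. The spreads were also shuffled over the genes, so the link between the level and the spread of a gene was not simulated either. Of 50 genes changed by 1.2 on the log2 scale 40 were called, and of 50 changed by 3, 46 were. Of 13474 unchanged genes 1 was called. Depth was estimated from 10427 genes with 1 transcript in GENCODE M21, where at least 99.4% of the low values (up to 5 reads) lay within 0.1 of a whole number of reads. The reads given for single genes follow from this estimate.

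The genes named are the 10 genes, in each pathway list up to 3 called genes with the largest change or the 1 most abundant gene where none was called, the cell type markers, and the 3 genes most correlated with each called gene. Fgf2, Egr1 and Egr2, which were called but lay beyond the 3 largest changes of their lists, are named as well. Dusp7, Dusp8, Spred3, Dusp23 and Erbb3 were chosen after their values were seen. Of the genes that this rule takes, 1 is not reported here. The 10 genes, the lists and the rules were chosen with earlier results of these data known. Each result was recomputed with another pseudocount (1 or 0.01), with no filter or a required mean of 5 FPKM, with values rescaled to TPM or centred on the library median, with a model of the compared groups alone, with group variance weights, with the robust option off, with the replicate number as a block, by adjusted p alone, and with each library left out. Promoter windows came from RefSeq (GRCm38.p6), another build than that of the files, so their coordinates are given for the windows alone. Python 3.11.15, pandas 2.3.3 and matplotlib 3.10.9 made the summaries and figures.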

Additional observations from a re-analysis of the deposited data

How the results depend on the processing

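Of the 10 genes, 3 were called for H against NC, 1 for HL against H and 3 for HL against NC. After rescaling to TPM 5 were called for H against NC, beside 1783 higher and 538 lower of all tested genes. For HL against H 0 were then called, beside 383 higher and 945 lower. For HL against H, 0 were also called with a pseudocount of 1 and where a mean FPKM of 5 was required, which leaves Spry1 and Spry4 untested. Without a fold threshold the counts were 6, 7 and 9. Leaving out 1 library at a time gave 3 to 4 for H against NC, with Spry4 added without NC replicate 2 or H replicate 2, 0 to 1 for HL against H, with Spry1 lost without H replicate 3 or HL replicate 3, and 3 to 3 for HL against NC. The single log2 fold changes that turned sign were, after rescaling to TPM, those of Spry2 (0.070 for H against NC, -0.0105 for HL against H and 0.060 for HL against NC), Spred1 (0.078) and Spred2 (0.15), both for H against NC, and, without HL replicate 2, that of Spry2 for HL against NC (0.033, with -0.0844 to 0.033 over the fits that leave out 1 library). The other 588 fold changes under the alternatives kept their direction, 564 of them with the same call. Over all tested genes, those called higher and lower in H against NC were 1402 and 786, but 2711 higher without the filter, 517 higher with a mean FPKM of 5, and 3711 higher and 4513 lower without a fold threshold. For HL against H, 486 and 797 became 256 higher with a pseudocount of 1, 255 higher and 270 lower with a mean FPKM of 5, 1606 lower without the filter, and 3652 and 2967 without a fold threshold. For HL against NC, 862 and 330 became 446 and 198 with a pseudocount of 1, 306 and 150 with a mean FPKM of 5, 622 lower without the filter, and 2957 and 3717 without a fold threshold. The share of calls that were higher in H against NC was 64.1%, 76.8% after rescaling to TPM, 72.1% without the filter and 48.5% with a mean FPKM of 5, and for HL against H 37.9%, 26.9% without the filter and 48.6% with a mean FPKM of 5. The cause of these changes was not tested. The deviations of same-numbered samples correlated by only -0.04 to 0.09. Between NC and H these values were 0.046 to 0.091, beside -0.071 to 0.011 for differently numbered samples. In pairs with HL they were -0.037 to 0.026, beside -0.058 to 0.060. Correlations this small cannot show whether the replicate numbers pair the samples. With the replicate block 3, 1 and 3 of the 10 genes were called. Without read counts no counting interval can be given for the genes with several transcripts.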

Other observations

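Erbb3, a receptor of neuregulin chosen here after its values were seen, was listed at 0.605 ± 0.0393 FPKM in NC, 1.16 ± 0.308 in H and 2.14 ± 0.187 in HL (SD, n = 3 each), and rose in HL against NC by a log2 fold change of 1.67 (adjusted p = 0.000278). Fgf5, at 0.489 ± 0.0561, 0.916 ± 0.526 and 1.81 ± 0.214 FPKM, was the ligand called higher in HL against NC (1.70, adjusted p = 0.00498). No NC library of either gene reached the 1 FPKM of the filter. Both were thus tested mainly through their HL libraries, so a difference from NC was built into their being tested. Both calls ended with a pseudocount of 1, and neither gene was tested where a mean FPKM of 5 was required. Of the 12 atypical dual-specificity phosphatases, Dusp15, Dusp23 and Dusp26 stayed below the filter, and Dusp23, also chosen after its values were seen, was listed at 0.956 ± 0.0433 FPKM in NC, 0.767 ± 0.0708 in H and 0.291 ± 0.0444 in HL, without a test. Myog, a factor of early muscle differentiation, rose in HL against H from 0.682 ± 0.0404 to 1.98 ± 0.188 FPKM (1.41, adjusted p = 0.000355), but only its HL libraries reached the 1 FPKM of the filter, so a difference was built into its being tested. Acta1, skeletal alpha-actin, rose from 3.61 ± 0.762 to 10.8 ± 0.626 FPKM (1.57, adjusted p = 7.88e-05). The other myotube markers did not pass the filter and had no test. Their means in H and HL were 0.0454 and 0.344 FPKM for Ckm, 0.173 and 0.582 for Myh3, and 0.245 and 0.586 for Mymk. Myh8 went the other way, with 0.0105 and 0.00405.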
